A study of Mus musculus with 6 samples.

Results

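A set of 10 antimicrobial and acute-phase genes of the gut lining were followed in colorectal tissue of colitis mice given either of 2 drugs. They are Reg3b, Reg3g, Reg4, Lcn2, Saa1, Saa2, Saa3, Ang4, Lypd8 and Il22ra1, chosen by name for what their products do and taken from the table by gene symbol. All 10 were among the 18268 genes of the table, and 8 of them passed the filter on low values (1 FPKM in at least 3 mice). Reg3b and Reg3g did not pass it.

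Adult male C57BL/6 mice drank water with dextran sulfate sodium (DSS), which damages the colon lining and brings on colitis, for 7 days. They were gavaged for 6 days with berberine (BBR), an alkaloid of medicinal plants, or with sulfasalazine (SASP), an aminosalicylate prodrug and standard treatment of ulcerative colitis, with 3 mice on each drug. DSS was thus shared by both groups. Mice without a drug or without colitis are not part of the comparison, and each difference is 1 drug against the other. The mice are numbered 1 to 3 within a group in the order of the samples, and equal numbers pair no mice. The labels name no separate animal for each sample, so p-values measure the spread between these samples. The tissue is whole colorectum with all its cell types, and in such samples fewer cells of a type and less RNA per cell cannot be told apart.

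Epithelial cells of the colon keep bacteria away from their surface by secreting proteins into the mucus, and many of the genes for these proteins are switched on by the cytokine IL-22, which acts on epithelial cells through a receptor made of Il22ra1 and Il10rb. The REG proteins are small C-type lectins, some of which kill gram-positive bacteria. Lipocalin-2, encoded by Lcn2, withholds iron from bacteria by binding their siderophores, and its level in stool is a common measure of gut inflammation. Serum amyloid A proteins, encoded by the Saa genes, are acute-phase proteins that bind lipids and retinol. They are made by the liver in systemic inflammation and by the gut epithelium in response to bacteria. Ang4 is a ribonuclease of the angiogenin family with antibacterial activity, and Lypd8 is a protein shed from the surface of colonocytes that holds flagellated bacteria off the epithelium.

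The promoters of the Saa genes and Lcn2 are shown because these 4 genes had the lowest log2 fold changes (BBR minus SASP) of the 8 tested and share a motif. In each, the 250 bases before the annotated start of the gene were read 5′ to 3′ on the strand of the gene from RefSeq (GRCm38.p6), a later build than the mm9 of the submitters' processing notes. Capitals mark matches to TTGCNNAA on either strand, a core of the sites bound by C/EBP transcription factors, which drive acute-phase genes. The Saa1 promoter is chr7:46742981-46743230, minus strand, Saa2 is chr7:46751583-46751832, plus strand, Saa3 is chr7:46715677-46715926, minus strand, and Lcn2 is chr2:32387740-32387989, minus strand.
Saa1: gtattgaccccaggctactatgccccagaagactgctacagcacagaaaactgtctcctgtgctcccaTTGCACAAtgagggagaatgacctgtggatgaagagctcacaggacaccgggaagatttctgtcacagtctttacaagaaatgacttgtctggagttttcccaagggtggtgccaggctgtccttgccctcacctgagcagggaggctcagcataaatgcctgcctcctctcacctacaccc
Saa2: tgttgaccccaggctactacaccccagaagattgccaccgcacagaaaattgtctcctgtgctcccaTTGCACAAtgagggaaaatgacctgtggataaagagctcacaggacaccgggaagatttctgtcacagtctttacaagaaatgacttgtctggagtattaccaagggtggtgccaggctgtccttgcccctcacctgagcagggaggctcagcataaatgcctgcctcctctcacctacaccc
Saa3: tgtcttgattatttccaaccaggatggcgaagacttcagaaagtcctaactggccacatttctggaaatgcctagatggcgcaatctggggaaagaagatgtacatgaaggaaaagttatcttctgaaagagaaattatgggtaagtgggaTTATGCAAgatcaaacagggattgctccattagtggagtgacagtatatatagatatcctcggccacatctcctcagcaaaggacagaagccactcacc
Lcn2: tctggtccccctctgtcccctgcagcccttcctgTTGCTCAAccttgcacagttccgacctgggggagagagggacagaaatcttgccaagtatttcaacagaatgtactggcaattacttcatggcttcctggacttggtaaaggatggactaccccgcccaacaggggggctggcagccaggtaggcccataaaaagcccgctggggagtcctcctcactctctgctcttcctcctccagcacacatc

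The match in Saa1 lay 182 to 175 bases before the start and that in Saa2 183 to 176 bases before it, both reading TTGCACAA. In Saa3 it read TTATGCAA, the motif on the other strand, at 99 to 92 bases, and in Lcn2 TTGCTCAA at 216 to 209 bases. The Saa1 and Saa2 promoters were 95.6% identical (238 of 249 aligned bases), so they are near copies and not separate observations of the motif. Of the 11 promoters listed for the 10 genes (Lypd8 has a pair), these 4 held the motif and the other 7 did not, and 9.56% of all 32851 promoters of this length held it. The 4 were picked by their fold changes and the shared motif, so this split is not a test. TTCNNNGAA, a STAT site on either strand, was found in Reg3b and Ang4 and in 7.02% of all promoters. The NF-kappaB consensus was found in Reg3g and Il22ra1 and in 7.25% of all promoters. A match of letters is not a bound site, and no binding was measured here.

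Values are FPKM, the fragments of a gene divided by its transcript length and by the mapped reads of the library, so levels can be set side by side between genes. The sum of FPKM was 461163 to 487054 per mouse, and the depth, estimated from genes with the lowest values, was about 16400000 to 18200000 reads. The epithelial marker list was expressed throughout, at a summed level of 9123 to 10082 FPKM in BBR and 9497 to 10842 FPKM in SASP mice, and Epcam, the defining surface marker of epithelium, had means of 989.9 ± 50.5 FPKM for BBR and 969 ± 134 FPKM for SASP (SD, n = 3 each). Other lists moved with the drug or with 1 mouse. Macrophage markers summed to 142 to 191 FPKM in BBR and 260 to 283 FPKM in SASP mice, but without Cd14 the sums of 109.8 to 171 and 167 to 188 FPKM overlapped. Smooth muscle markers summed to 3579 to 8241 FPKM in BBR and 1010 to 2989 FPKM in SASP mice. BBR mouse 3 stood apart from BBR mice 1 and 2. Its granulocyte markers summed to 612 FPKM, against 260 and 211 FPKM in the other two and 638 to 680 FPKM in SASP mice. Ly6g alone made up 90.2% of the sum in this mouse, and without that gene the sums were 27.9, 21.2 and 60.1 FPKM in BBR mice 1, 2 and 3 and 132 to 351 FPKM in SASP mice, so that BBR mouse 3 was with the other BBR mice. Those sums came mostly from Cd177 and Ltf. The smooth muscle sum of BBR mouse 3 was the highest of the 6 mice. Its goblet and deep crypt secretory markers summed to 24571 FPKM, where the other 5 mice had 10652 to 15702 FPKM. Each result that rests on this mouse is therefore given with and without it, and the part of these cell types in the results was not tested.

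**Figure D1:**
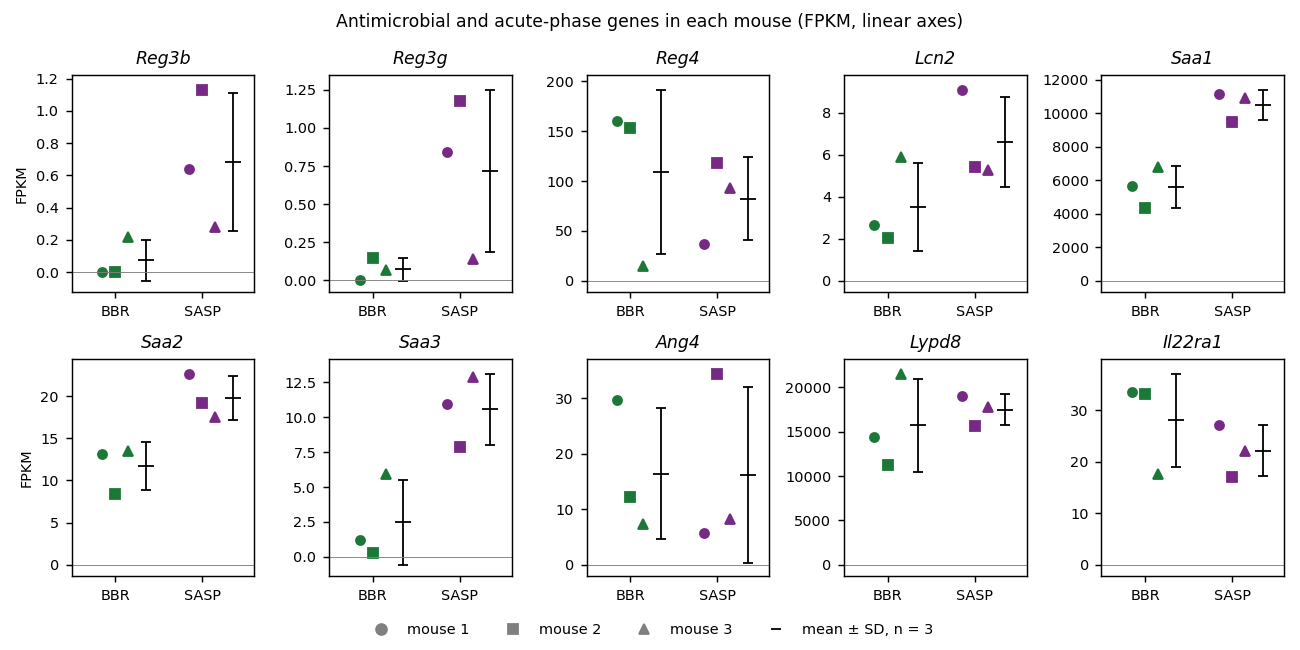
FPKM of each of the 10 genes (linear vertical axes, a separate scale for each gene) in the 3 BBR and 3 SASP mice, with symbols for single mice and a bar for mean ± SD (n = 3). The BBR mice lie below all SASP mice for Saa1, Saa2, Saa3 and Reg3b, and BBR mouse 3 lies nearer to the SASP mice than the other BBR mice do for Lcn2, Saa3 and Il22ra1.

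None of the 8 tested genes passed an adjusted p-value of 0.05 (limma on log2(FPKM + 1), Benjamini-Hochberg over 12072 genes), where 8.86% of all tested genes did (5.04% lower and 3.82% higher under BBR). At an unadjusted p of at most 0.05, 4 of the 8 were lower in BBR mice, namely Lcn2, Saa1, Saa2 and Saa3. Of all 12072 tested genes, 1613 were lower and 2224 higher at that p, 31.8% in either direction. The groups did not overlap for Saa1, Saa2 and Saa3, all lower in BBR, as was the case in that direction for 16.6% of all tested genes and in either direction for 37.9%. The log2 fold change (BBR minus SASP) was below 0 for 6 of the 8 genes and for 39.2% of all tested genes. Its median was -0.47 over the 8 genes and 0.10 over all tested genes.

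Saa1 (Gene ID 20208) was among the 4 highest genes of the table in every mouse. It was at 5631, 4316 and 6799.9 FPKM in BBR mice 1, 2 and 3 and at 11128, 9449 and 10876 FPKM in SASP mice 1, 2 and 3. The highest BBR mouse was thus well below the lowest SASP mouse, and the group means were 5582 ± 1243 and 10485 ± 905 FPKM (SD, n = 3 each), a ratio of 1.88 in favour of SASP. Transcripts of this single gene made up 0.936% to 1.44% of all FPKM in BBR and 2.002% to 2.28% in SASP mice. The log2 fold change was -0.93 (SE 0.28, 95% interval -1.59 to -0.27), with an unadjusted p of 0.0128 and a limma adjusted p of 0.0781. Relative to Epcam, Saa1 was 5.40, 4.39 and 7.21 times as high in BBR mice and 10.1, 11.3 and 11.2 times as high in SASP mice. Set against each of the 14 epithelial markers in turn, Saa1 was lower in all BBR than in all SASP mice for 13. The exception was Krt20, a keratin of mature colonocytes that itself had lower values in BBR mice, where the ratios overlapped (19.8, 17.6 and 12.3 in BBR and 12.4, 15.2 and 13.7 in SASP mice). Vil1, Cldn7 and Cdh17 were also lower in all BBR than in all SASP mice. For Vil1 the ratios came close, with up to 27.0 in BBR and from 27.1 in SASP mice. Saa1 alone already kept the groups apart, so these ratios are not separate observations.

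Saa2 (20209) followed the same order at a far lower level. BBR mice 1, 2 and 3 had 13.1, 8.41 and 13.5 FPKM and SASP mice 1, 2 and 3 had 22.6, 19.2 and 17.6 FPKM, with no overlap. Means were 11.7 ± 2.83 and 19.8 ± 2.59 FPKM (SD, n = 3 each), and the log2 fold change was -0.73 (SE 0.19, 95% interval -1.19 to -0.28, limma adjusted p = 0.0602). The Saa1 level was 429 to 619 times the Saa2 level in the 6 mice. The transcripts of both genes were 94.4% identical (572 of 606 aligned bases), and 14.8% of the 50-base windows of Saa1 were also found in another gene, mostly Saa2. How reads were divided between them is therefore uncertain. With both summed to 1 value the log2 fold change was -0.93 (limma adjusted p = 0.0784), which is that of Saa1.

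Saa3 (20210), another serum amyloid A gene, which macrophages and epithelial cells express on inflammation, had the widest difference of the 8 genes. BBR mice 1, 2 and 3 had 1.22, 0.24 and 5.93 FPKM, and SASP mice 1, 2 and 3 had 10.97, 7.87 and 12.9 FPKM. All BBR values were below all SASP values, but they spread 24.7-fold among themselves, and BBR mouse 3 lay closer to the SASP mice than to the other two. The means of 2.46 ± 3.04 and 10.6 ± 2.54 FPKM (SD, n = 3 each) gave a ratio of 4.29, and the log2 fold change was -2.09 (SE 0.58, 95% interval -3.46 to -0.72, limma adjusted p = 0.0657). At the estimated depth these values stand for about 11, 2 and 55 reads in BBR and 108, 79 and 120 reads in SASP mice, so the lowest BBR values are imprecise. Only 1.78% of the 50-base windows of Saa3 were shared with another gene.

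Without BBR mouse 3 all Saa genes passed the threshold. In that fit of 2 against 3 mice, 33.8% of 11878 tested genes passed, 11.5% lower and 22.3% higher under BBR. The log2 fold changes were -1.08 for Saa1 (limma adjusted p = 0.0111), -0.84 for Saa2 (adjusted p = 0.0219) and -2.78 for Saa3 (adjusted p = 0.00287). BBR mouse 3 was the highest BBR mouse for each Saa gene, so leaving it out had to widen each difference. With any other mouse left out, no Saa gene passed (limma adjusted p = 0.0981 to 0.236). The granulocyte marker sums, with or without Ly6g, were also lower in all BBR than in all SASP mice, whereas the macrophage sums were apart only with Cd14 included. Without Ly6g the granulocyte sums came mostly from Cd177 and Ltf. The part of these cells in the Saa values was not tested.

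Lcn2 (16819) was expressed at a low level in these mice. BBR mice 1, 2 and 3 had 2.64, 2.03 and 5.92 FPKM and SASP mice 1, 2 and 3 had 9.10, 5.44 and 5.30 FPKM. BBR mice 1 and 2 were below all SASP mice, whereas BBR mouse 3 was within the SASP range, so the groups overlapped. Means were 3.53 ± 2.09 and 6.61 ± 2.15 FPKM (SD, n = 3 each), and the log2 fold change was -0.81 (SE 0.34, 95% interval -1.61 to -0.0074), with an unadjusted p of 0.0484 and a limma adjusted p of 0.154. Without BBR mouse 3 it was -1.16 and Lcn2 passed the threshold (limma adjusted p = 0.0154), in a fit where 11.5% of all tested genes passed lower. That mouse was the highest BBR mouse for Lcn2. With any other mouse left out, Lcn2 did not pass (limma adjusted p = 0.215 to 0.405). Lcn2 is also made by neutrophils. In the granulocyte list, 13 of 14 genes were in the table and 7 were tested. Of these, 3 were lower under BBR past the threshold, as were 5.04% of all tested genes. Of the granule genes, Mpo, Ngp and Camp were at most 0.47 FPKM in any mouse. Ltf, the lactoferrin gene of neutrophil granules and of some epithelia, was at 0.48, 0.2 and 5.13 FPKM in BBR mice 1, 2 and 3 and at 211.6, 21.7 and 85.9 FPKM in SASP mice 1, 2 and 3. Cd177, a neutrophil surface gene, was at 18.4 to 38.8 FPKM in BBR and 79.0 to 110.8 FPKM in SASP mice. Csf3r overlapped, at 0.58 to 1.72 FPKM in BBR and 1.59 to 1.90 FPKM in SASP mice. So did Cxcr2, at 0.89 to 1.80 FPKM in BBR and 0.85 to 1.34 FPKM in SASP mice. Of the 7 tested genes, 6 had a log2 fold change below 0 and 1, Cxcr2, above it. S100a8, an abundant neutrophil gene, was listed at 0 in BBR mice 1 and 2, and was at 6.19 FPKM in BBR mouse 3 and 18.5 to 23.1 FPKM in SASP mice. The part of such cells in the Lcn2 values was not tested.

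**Figure D2:**
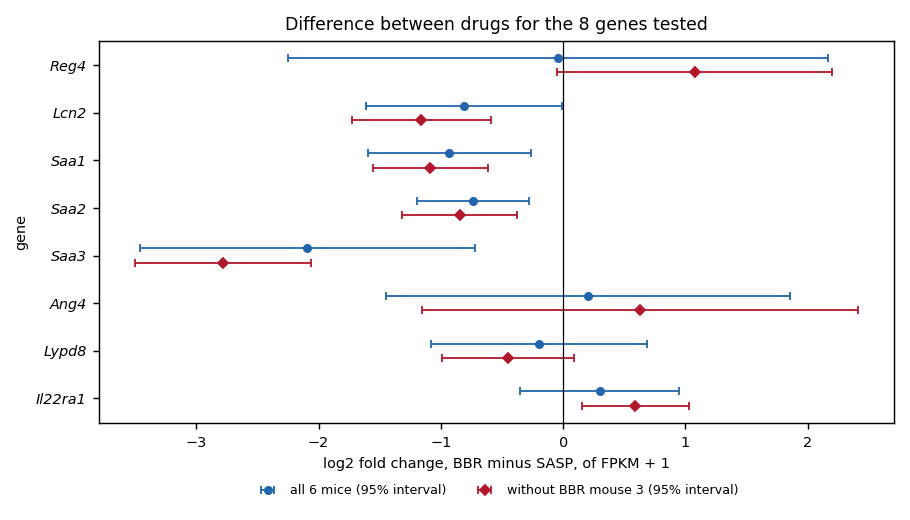
Log2 fold change of FPKM + 1 (BBR minus SASP, horizontal axis) of the 8 tested genes, with 95% limma intervals, for all 6 mice (blue circles) and without BBR mouse 3 (red diamonds). The intervals of Lcn2, Saa1, Saa2 and Saa3 lie below 0 in both fits, and Reg4 moves from -0.04 to 1.08 without that mouse.

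Reg3b (18489) and Reg3g (19695), REG lectins that IL-22 induces, were barely detected. Reg3b was listed at 0 in BBR mice 1 and 2 and at 0.22 FPKM in BBR mouse 3, and was at 0.64, 1.13 and 0.28 FPKM in SASP mice 1, 2 and 3. The BBR mice had 0, 0.15 and 0.07 FPKM of Reg3g and the SASP mice 0.84, 1.18 and 0.14 FPKM. SASP mice 1 and 2 were highest for both genes, and the groups overlapped for Reg3g but not for Reg3b. The values stand for about 0 to 16 reads of Reg3b and 0 to 17 reads of Reg3g, and a gene with no read could still be at up to 0.234 and 0.237 FPKM (3 reads, counting error only). With every gene tested regardless of level, the log2 fold changes were -0.62 for Reg3b (limma adjusted p = 0.111) and -0.63 for Reg3g (adjusted p = 0.153). The SASP mice themselves spread 4.04-fold for Reg3b and 8.43-fold for Reg3g, the log2(FPKM + 1) scale compresses values this low, and these fits do not settle whether the drugs differ.

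Reg4 (67709), a REG lectin of the deep crypt secretory cells of the colon, was by contrast well expressed and varied widely among the BBR mice. It was at 159.8, 153.7 and 14.4 FPKM in BBR mice 1, 2 and 3 and at 36.5, 117.7 and 93.2 FPKM in SASP mice 1, 2 and 3. BBR mice 1 and 2 were above every SASP mouse and BBR mouse 3 was below every SASP mouse, an 11.1-fold range within the group. Means were 109 ± 82.2 and 82.5 ± 41.6 FPKM (SD, n = 3 each), and the log2 fold change of -0.04 had a 95% interval of -2.25 to 2.16 (limma adjusted p = 0.979). Its sign turned in several fits, to 1.08 without BBR mouse 3 (adjusted p = 0.117), 0.29 without SASP mouse 2 and 0.12 without SASP mouse 3, and to 0.0202 with quantile normalization. BBR mouse 3, lowest for Reg4, had the highest sum of the goblet and deep crypt secretory list, which is made up mostly of abundant goblet genes. Kit, listed as a marker of deep crypt secretory cells but not particular to them in whole tissue, was at 8.42, 12.3 and 7.08 FPKM in BBR mice 1, 2 and 3. The SASP mice had 4.88, 5.11 and 4.88 FPKM. Kit was thus lowest of the BBR mice in mouse 3 but above all SASP mice there. Which cells the Kit values came from was not tested. None of the 13 tested genes of the list passed the threshold in limma, and the median of the list was 0.17. An unadjusted p of at most 0.05 was found for 1 of them and for 31.8% of all tested genes.

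Ang4 (219033) differed more between mice than between drugs. BBR mice 1, 2 and 3 had 29.7, 12.2 and 7.30 FPKM and SASP mice 1, 2 and 3 had 5.78, 34.4 and 8.22 FPKM, so each group held 1 mouse far above the other two and the groups overlapped. Means were 16.4 ± 11.8 and 16.1 ± 15.8 FPKM (SD, n = 3 each), with a log2 fold change of 0.20 (95% interval -1.45 to 1.86, limma adjusted p = 0.859). The sign turned without BBR mouse 1 (-0.31), SASP mouse 1 (-0.27) or SASP mouse 3 (-0.046). Without BBR mouse 3 the log2 fold change was 0.63 (limma adjusted p = 0.517). Of its 50-base windows, 4.70% were shared with other genes, mainly Ang5.

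Lypd8 (70163) had the highest FPKM of all genes in each of the 6 mice. It was at 14408, 11265 and 21504 FPKM in BBR mice 1, 2 and 3 and at 19023, 15631 and 17762 FPKM in SASP mice 1, 2 and 3, which was 2.44% to 4.56% of all FPKM of a mouse. BBR mice 1 and 2 were below and BBR mouse 3 above all SASP mice. Means were 15726 ± 5245 and 17472 ± 1714 FPKM (SD, n = 3 each), and the log2 fold change was -0.20 (SE 0.37, 95% interval -1.08 to 0.68, limma adjusted p = 0.734). It was -0.45 without BBR mouse 3 (adjusted p = 0.155) and 0.015 without BBR mouse 2. The ratio of Lypd8 to Saa1, the 2 most abundant of these transcripts, was 2.56, 2.61 and 3.16 in BBR and 1.71, 1.65 and 1.63 in SASP mice. The groups of ratios did not overlap, but 3 against 3 mice cannot give an exact two-sided permutation p below 0.1.

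Il22ra1 (230828), the epithelial subunit of the IL-22 receptor, was at 33.4, 33.0 and 17.7 FPKM in BBR mice 1, 2 and 3 and at 27.1, 17.1 and 22.2 FPKM in SASP mice 1, 2 and 3. BBR mice 1 and 2 were above all SASP mice and BBR mouse 3 was within their range. Means were 28.0 ± 8.99 and 22.1 ± 4.98 FPKM (SD, n = 3 each), with a log2 fold change of 0.30 (SE 0.27, 95% interval -0.35 to 0.95, limma adjusted p = 0.475). Without BBR mouse 3, the lowest of the BBR mice, it was 0.59 and only just passed the threshold (limma adjusted p = 0.0484). In that fit 22.3% of all tested genes passed higher, and the receptor gene was higher under BBR while Saa1, Saa2, Saa3 and Lcn2 were lower. With any other mouse left out, Il22ra1 did not pass (log2 fold change 0.13 to 0.45, limma adjusted p = 0.439 to 0.793).

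Across the 8 tested genes, BBR mouse 3 was nearer to the SASP mean than to the mean of BBR mice 1 and 2 on the log2 scale for 6, all but Saa1 and Saa2, as it was for 51.1% of all tested genes. It lay within the SASP range for Lcn2, Ang4 and Il22ra1, and for 23.2% of all tested genes. BBR mice 1 and 2 were both outside the SASP range for 7 genes, where 67.9% of all tested genes were (21.1% below and 44.0% above it). They were below it for Lcn2, Saa1, Saa2, Saa3 and Lypd8 and above it for Reg4 and Il22ra1.

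Genes around the IL-22 receptor did not differ past the threshold. All 22 listed ligand, receptor and signalling genes, Il22ra1 among them, were in the table and 14 were tested, 9 of them with a log2 fold change above 0 and 5 below, with a median of 0.15 and none past the threshold. At an unadjusted p of at most 0.05, 1 of the 14 passed, against 31.8% of all tested genes. The following were singled out for their place in the pathway after their values were seen. Il22, the ligand, was listed at 0 in all BBR mice and was at 0, 1.2 and 0.1 FPKM in SASP mice 1, 2 and 3. Il10rb, the second receptor subunit, had a log2 fold change of 0.21 (limma adjusted p = 0.369), and Stat3, the transcription factor downstream, one of -0.20 (adjusted p = 0.481). Socs3, a feedback inhibitor that STAT3 induces, was at 3.52, 3.38 and 79.1 FPKM in BBR mice 1, 2 and 3 and at 20.8, 39.0 and 24.7 FPKM in SASP mice. BBR mice 1 and 2 were below and BBR mouse 3 above all SASP mice, and the log2 fold change was -1.27 (limma adjusted p = 0.435). Without BBR mouse 3, 7 of the list passed the threshold, 4 higher and 3 lower, in a fit where 33.8% of all tested genes passed.

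Other epithelial antimicrobial and mucus-layer genes mostly had lower values under BBR. Of 36 listed genes 31 were in the table and 26 were tested, with a median log2 fold change of -0.68. It was below 0 for 21 and above 0 for 5, where 39.2% of all tested genes were below 0. The only members past the threshold were higher. Ang, the angiogenin gene related to Ang4, had means of 13.3 ± 1.54 FPKM for BBR and 6.99 ± 0.898 FPKM for SASP (SD, n = 3 each) and rose by 0.84 on the log2 scale (limma adjusted p = 0.0206). Rnase4, a ribonuclease gene that shares its promoter with Ang, was at 55.0 ± 7.06 and 25.8 ± 6.75 FPKM, a change of 1.09 (adjusted p = 0.0260). Reads of these neighbours may be divided with error. The values of Ang4 did not follow those of Ang, for which all BBR mice were above all SASP mice. Without BBR mouse 3, 18 of the list passed, 2 higher and 16 lower, where 22.3% of all tested genes were higher and 11.5% lower.

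For other acute-phase genes the median log2 fold change was -1.21. Of 33 listed genes 28 were in the table and 18 were tested. Of these, 6 fell past the threshold and none rose, where 5.04% of all tested genes fell and 3.82% rose. Serpina3g, a serine protease inhibitor gene, was at 0.97, 1.08 and 2.21 FPKM in BBR mice 1, 2 and 3 and at 11.1, 7.37 and 11.9 FPKM in SASP mice 1, 2 and 3, a log2 fold change of -2.21 (limma adjusted p = 0.00823). Cd14, the monocyte co-receptor for lipopolysaccharide, fell from 92.0 ± 21.4 FPKM under SASP to 24.8 ± 6.48 FPKM under BBR (SD, n = 3 each), a change of -1.85 (adjusted p = 0.00891). It is a marker of macrophages as well, and the other genes of that list, summed without it, overlapped between the drugs. Cfb, complement factor B, was at 65.8 ± 3.199 and 121.6 ± 12.6 FPKM, a change of -0.87 (adjusted p = 0.00999), with BBR mouse 3 at 68.8 FPKM beside 66.0 and 62.4 FPKM in BBR mice 1 and 2. The other 3 were C3, Steap4 and Tnf, the last a cytokine gene that drives the response. The log2 fold change of Saa1 was close to that of Cfb, with a standard error of 0.28 for Saa1 and 0.11 for Cfb. Cebpb and Cebpd, which encode C/EBP factors of the acute-phase response, had log2 fold changes of 0.32 and -0.02 (adjusted p = 0.393 and 0.979). Cebpd was at 21.5, 17.3 and 58.7 FPKM in BBR mice 1, 2 and 3 and at 21.9, 29.9 and 35.2 FPKM in SASP mice. BBR mice 1 and 2 were thus below and BBR mouse 3 above all SASP mice. BBR mouse 3 was also highest for Cebpb, at 14.7 FPKM. Without BBR mouse 3, 9 genes of the list passed the threshold, all lower, where 11.5% of all tested genes passed lower.

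**Figure D3:**
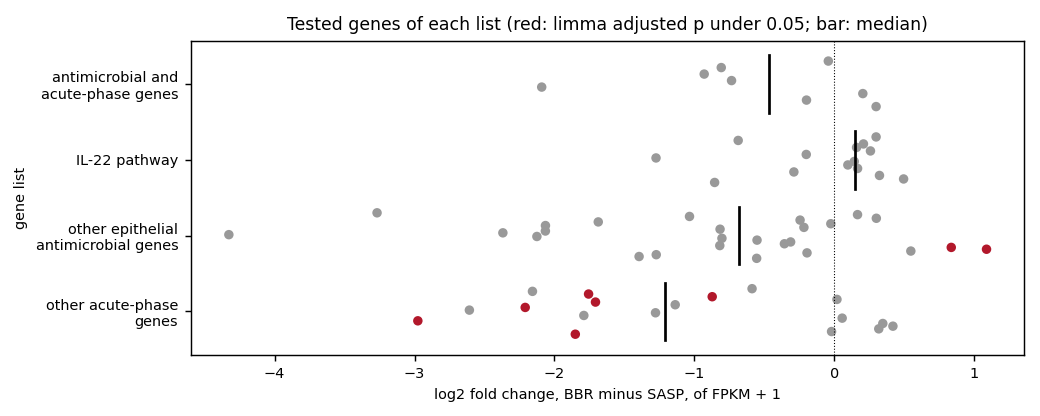
Log2 fold change of FPKM + 1 (BBR minus SASP) of each tested gene in 4 lists, with red points for genes past a limma adjusted p of 0.05 and a bar at the median of each list. The medians are -0.47 for the antimicrobial and acute-phase genes followed here, 0.15 for the IL-22 pathway, -0.68 for the other antimicrobial and -1.21 for the other acute-phase genes.

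The remaining lists describe the tissue in which these values were measured. Of all tested genes, 5.04% were lower and 3.82% higher under BBR past the threshold. Of 14 epithelial markers, Krt18 and Cdx2 were higher and Vil1 was lower under BBR past the threshold (log2 fold changes of 0.75, 1.496 and -0.55), and the median was 0.03. None of the 12 smooth muscle markers passed the threshold in limma, but all had log2 fold changes above 0, with a median of 1.26. An unadjusted p of at most 0.05 was found for 10 of them. Of all 12072 tested genes, 2224 were higher and 1613 lower at that p, 31.8% in either direction. Of 10 tested macrophage markers, Cd14 and Fcgr1 fell, and of 7 tested granulocyte markers, Cd177, Ltf and S100a8 fell, with log2 fold changes of -1.83, -5.08 and -3.49. Of the liver and pancreas genes only Cela1 passed the threshold (0.73), and Alb, the albumin gene of the liver, the main source of circulating serum amyloid A, was at most 0.35 FPKM in any mouse. Ttr, of the same list, was at 25.4, 22.9 and 6.45 FPKM in BBR mice 1, 2 and 3. In SASP mice it was at 5.79, 8.58 and 7.03 FPKM, a log2 fold change of 1.06 (limma adjusted p = 0.170). The source of the Saa transcripts was not tested. No gene for distal gut position passed the threshold in limma or an unadjusted p of 0.05, with a median of 0.15 over 6 tested genes. Without BBR mouse 3, where 33.8% of all tested genes passed, the genes past the threshold were 7 of the epithelial, 6 of the granulocyte, 3 of the distal gut, 2 of the goblet and deep crypt secretory and 2 of the macrophage list. In that fit 2 of the liver and pancreas list and 0 of the smooth muscle list passed. The 4 other REG genes listed, Reg1, Reg2, Reg3a and Reg3d, were not among the genes of the table under these symbols.

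**Figure D4:**
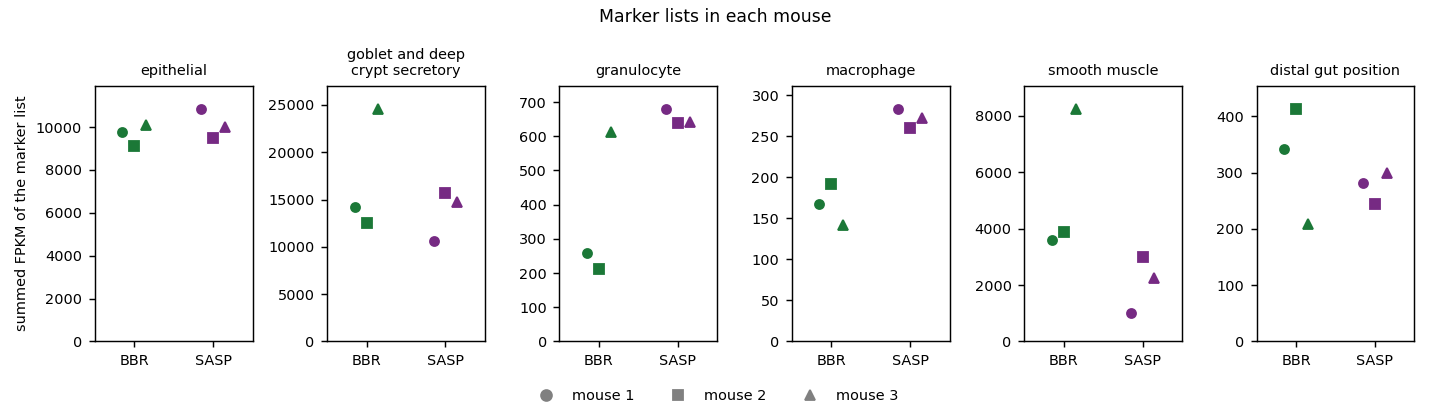
Summed FPKM of 6 marker lists (vertical axes from 0, a separate scale for each list) in each BBR and SASP mouse. Epithelial sums overlap between the drugs, macrophage and granulocyte sums are lower (the former only with Cd14 included) and smooth muscle sums higher in all BBR than in all SASP mice, and BBR mouse 3 has the highest goblet and smooth muscle sums.

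Genes with the most similar profile over the 6 mice were found for each tested gene, by the root mean square (RMS) difference of centred log2(FPKM + 1), as a description. Their likeness is set by this choice and is not a separate observation. Saa1 was nearest to Bzw2 and Rrbp1, a ribosome-binding protein of the secretory endoplasmic reticulum (RMS 0.065 and 0.0797). Lcn2 was nearest to Manf, a stress protein of the endoplasmic reticulum, and to Ceacam1, an epithelial adhesion molecule (0.162 and 0.185). Saa2 was nearest to Mgst1 and Nup37 (0.079 and 0.119) and Saa3 to Ly6a and Ripk3, a kinase of necroptosis (0.242 and 0.252). Ly6a, also called Sca-1, was at 376.4, 281.4 and 1210.03 FPKM in BBR mice 1, 2 and 3 and at 2988, 1678 and 2148 FPKM in SASP mice, with BBR mouse 3 between the other BBR mice and the SASP mice. Reg4 was nearest to Nr1d1, a circadian clock gene, and to Coq8a, with less likeness (0.466 and 0.606). Nr1d1 was at 45.8, 26.1 and 5.86 FPKM in BBR mice 1, 2 and 3 and at 13.02, 25.5 and 33.8 FPKM in SASP mice, lowest in BBR mouse 3. Lypd8 was nearest to Resf1 and Akap13 (0.0631 and 0.0819) and Il22ra1 to Traf1 and Cd83 (0.0963 and 0.101). Ang4 had no close neighbour among named genes, the nearest being LOC105244034 and Gm40525 (0.480 and 0.503).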

How the data were processed

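Colorectal RNA of 3 BBR and 3 SASP colitis mice was analysed, grouped by their treatment label. The deposited values are FPKM per gene, which the authors calculated with RSEM after aligning reads with Bowtie2, and the submitters' processing notes name Bowtie2 2.2.5, RSEM 1.2.12 and mm9. The annotation is not given in the sources used here. The methods of the study describe ribosomal RNA depletion and sequencing of rectal samples, whereas the labels name an Illumina library kit and colorectal tissue. All 6 sample columns were used and 0 were left out.

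FPKM are not counts, so they were transformed as log2(FPKM + 1), a scale that understates changes of low genes. A gene was tested where 3 or more samples had 1 FPKM or more, which left 12072 genes. BBR and SASP were compared with limma 3.58.1 (R 4.3.3) with a mean-variance trend, and two-sided p-values were adjusted over all tested genes (Benjamini-Hochberg, threshold 0.05). The fit was tested on simulated data. RSEM divides reads that fit several genes, so values of near copies are uncertain.

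Depth is an approximate estimate, made by taking the typical value of genes detected in 1 sample alone (transcripts under 1500 bases) as 1 read, so read numbers and limits made from it cover counting error only. Transcript comparisons used the first listed GENCODE M21 transcript of each gene and Biopython 1.88, and promoters were taken from RefSeq (GRCm38.p6), where all 10 genes matched. Each motif was searched on both strands.

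The genes and gene lists were chosen with earlier results of these data known. The genes to be named were all 10 of the set, up to 3 members of each list with the smallest p-values past the threshold, and the 2 genes nearest in profile to each tested gene, and other genes named were chosen after their values were seen. Alternatives covered the pseudocount, the filter, scaling, the variance model, sample weights, the summing of near copies, the threshold and each mouse left out.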

Additional observations from a re-analysis of the deposited data

How the results depend on the processing

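Of the 8 tested genes, Lcn2, Saa1, Saa2 and Saa3 had a log2 fold change below 0, and Il22ra1 one above 0, under every alternative run. The ranges were -1.16 to -0.57 for Lcn2, -1.08 to -0.30 for Saa1, -0.86 to -0.50 for Saa2, -3.09 to -1.54 for Saa3 and 0.13 to 0.59 for Il22ra1, and adjusted p-values in limma ranged from 0.00202 to 0.405, 0.000879 to 0.433, 0.00780 to 0.205, 0.000125 to 0.201 and 0.00398 to 0.793. The number of these genes past the threshold, 0 in the fit reported, was 1 with epithelial scaling (Saa2), 1 with no mean-variance trend (Saa1), 6 with array weights (Lcn2, Saa1, Saa2 and Saa3 lower, Ang4 and Il22ra1 higher), 4 at an unadjusted p of at most 0.05, and 0 to 5 with each mouse left out in turn, the 5 without BBR mouse 3. Reg4 turned to 0.0202 with quantile normalization and 0.80 with array weights, and was -0.62 to 1.08 with a mouse left out. Ang4 was -0.31 to 0.92 and Lypd8 -0.45 to 0.015 with a mouse left out. Lypd8 was 0 with quantile normalization, which sets the top gene of every mouse to 1 value. Over all genes, 1069 passed, 43.1% of them higher under BBR. The count was 608 with no filter, 1737 with quantile normalization, 1684 with median-ratio scaling (29.6% higher), 600 with epithelial scaling (26.3% higher), 7126 with array weights (65.1% higher), 3837 at an unadjusted p of at most 0.05 (58.0% higher), and 51 without SASP mouse 3 to 4018 without BBR mouse 3. Median-ratio scaling moved the median of all genes from 0.10 to -0.02, and no direction of the 8 genes turned with it. With epithelial scaling, the genes past the threshold in the other antimicrobial list numbered 4, of which 2 were lower. The list counts without BBR mouse 3, the marker sums without Ly6g or Cd14 and the ratios of Saa1 to every epithelial marker were added after seeing the data. The causes of these shifts were not tested. No paired analysis was possible because the replicate numbers follow only the order of the samples. With 3 mice a group, 1 mouse can decide a call, and the reads behind Reg3b, Reg3g and the lowest Saa3 values are too few for a precise difference.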
